A study of Mus musculus with 714 samples.

Results

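Plat and Tgfbi are 2 of the 12479 gene rows in a count table of single epithelial cells from the mouse uterus. Both were selected on their summed level, which was higher at postnatal day 7 (pnd7) than at birth (pnd0) in these same data. That contrast is therefore given below as a description, and no support is drawn from it. The cells came from the uterus of ICR mice, an outbred strain, and had been sorted for CD326, the epithelial surface protein also called EpCAM. CEL-seq, which copies single-cell RNA linearly by in vitro transcription and counts 3' ends, was run on cells of 5 ages: pnd0, pnd7, pnd14, pnd28 and pnd56. No genotype, treatment, litter or pool is named for any age, so each age is 1 sample with no replicate, and the cells of an age are not replicates of it.

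Plat encodes tissue plasminogen activator, a secreted serine protease that turns plasminogen into plasmin. Plasmin digests fibrin and matrix proteins and can release growth factors held in the matrix. Tgfbi encodes a secreted matrix protein with fasciclin domains that binds collagens and integrins, and it is named for its response to transforming growth factor beta (TGF-beta). TGF-beta is released from a latent complex, binds a pair of receptor kinases and acts on transcription through SMAD proteins.

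The window around the Tgfbi start site is printed because TGF-beta signalling ends on SMAD binding elements. It comes from RefSeq on build GRCm38.p6 at chr13:56609336-56609635, plus strand, from 250 bases before the start to 50 bases after it. Of the 2 genes, 1 matched the promoter table, and no promoter is shown for Plat. Capitals mark the SMAD element CAGAC, which reads GTCTG where it lies on the minus strand, and the GC box GGGCGG, which reads CCGCCC there.
Tgfbi: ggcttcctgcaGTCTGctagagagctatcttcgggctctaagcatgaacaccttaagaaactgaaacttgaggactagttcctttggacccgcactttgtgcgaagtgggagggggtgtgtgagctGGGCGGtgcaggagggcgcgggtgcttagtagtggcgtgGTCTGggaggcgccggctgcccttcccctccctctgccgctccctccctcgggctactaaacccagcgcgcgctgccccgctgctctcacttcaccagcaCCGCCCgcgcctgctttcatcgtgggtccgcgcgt
The SMAD element was found at −239 and −85 from the start, both on the minus strand. The GC box was found on the plus strand at −124 and on the minus strand at 15. These letters are common: of 32851 windows of the same length, 49.6% held CAGAC and 35.7% held GGGCGG on either strand. No match was found for the AP-1 site TGANTCA (7.81% of all windows), the cyclic AMP response element TGACGTCA (1.79%), the TATA box TATAAA (13.6%) or the core oestrogen response element (0.0700%). The searched motifs do not overlap in this window, which was 63.3% G and C against a median of 52.7% over all windows. A match is a run of letters and says nothing of binding.

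The table holds 714 cells with counts of 960 that had been sorted, namely 173, 267, 173, 56 and 45 cells from the youngest to the oldest age. Summed counts were 582615, 732957, 354047, 96248 and 81894, and the median count per cell was 3037, 2492, 1782, 1600 and 1670. Because depth fell with age, shares of cells are also given with each cell thinned at random to 1500 counts, leaving out 9, 13, 60, 23 and 20 shallower cells in that order of ages. The cell titles run in blocks of 96 numbers, each with cells of 1 age: blocks 1 and 2 at pnd0, 5, 6 and 10 at pnd7, 3, 4 and 7 at pnd14, 9 at pnd28 and 8 at pnd56. What a block stands for is not given in the labels, and age and block cannot be told apart. Levels are summed counts of the gene per 1000000 summed counts (CPM). Brackets hold exact 95% intervals, which cover counting error only.

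Plat was low at birth, highest at pnd7, intermediate at pnd14 and pnd28 and lowest at pnd56. Its 135 counts at pnd0 gave 232 CPM [194, 274] and its 553 counts at pnd7 gave 754 CPM [693, 820]. The 174 counts at pnd14 gave 491 CPM [421, 570], the 63 at pnd28 gave 655 CPM [503, 837], and the 10 at pnd56 gave 122 CPM [58.6, 225]. In the order of these levels, pnd7, pnd28, pnd14, pnd0 and pnd56, the intervals of pnd28 overlapped those of pnd7 and of pnd14, and the intervals of pnd0 and pnd56 overlapped each other. By level, 166th among all rows at pnd7 was its highest place and 1538th at pnd56 its lowest.

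Tgfbi followed another course after the first week. It had 129 counts at pnd0, or 221 CPM [185, 263], and 490 at pnd7, or 669 CPM [611, 730]. At pnd14 its 347 counts gave 980 CPM [880, 1089], at pnd28 its 111 counts gave 1153 CPM [949, 1389], and at pnd56 its 8 counts gave 97.7 CPM [42.2, 192]. The order was pnd28, pnd14, pnd7, pnd0 and pnd56. The intervals of pnd28 and pnd14 overlapped, as did those of pnd0 and pnd56. In summed levels, more cells with RNA of a gene and more RNA per cell cannot be told apart.

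**Figure D1:**
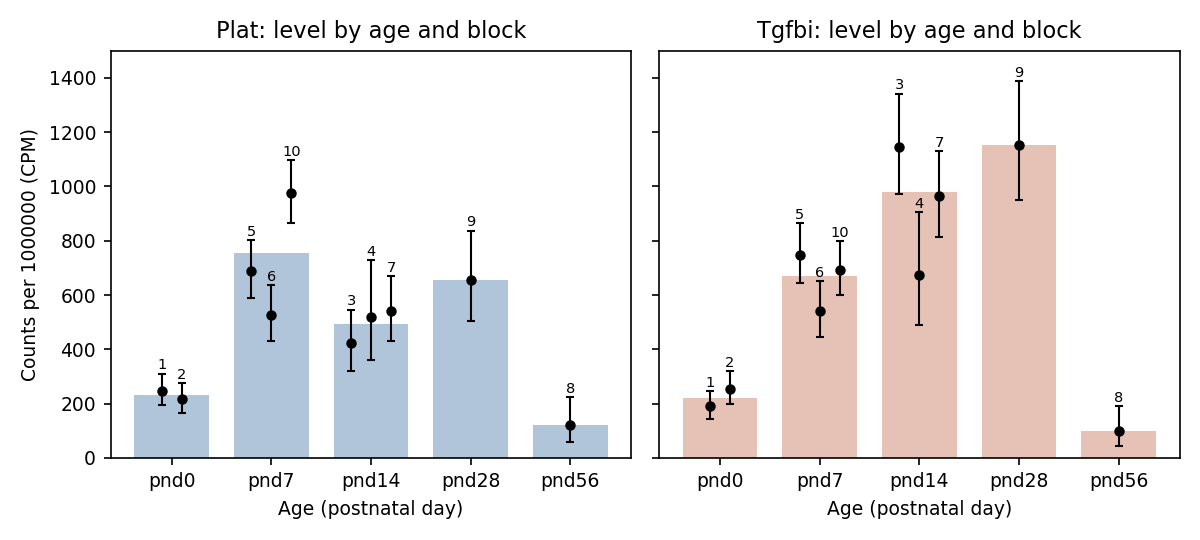
Level of Plat (left) and Tgfbi (right) in counts per 1000000 (CPM) at the 5 ages. Bars are the summed level of an age, black points are the blocks (numbered) with exact 95% Poisson intervals, and every pnd7 block lies above both pnd0 blocks while block 10 stands highest for Plat at 975 CPM.

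Within the ages, the blocks differed more for Plat at pnd7 than at birth. Plat stood at 247 CPM in block 1 and 216 CPM in block 2 at pnd0, and at 690, 526 and 975 CPM in blocks 5, 6 and 10 at pnd7. Block 10 lay above the other pnd7 blocks beyond counting error, since its interval [864, 1097] began above theirs. At pnd14 blocks 3, 4 and 7 gave 422, 520 and 540 CPM, all below block 5 and 1 of them above block 6. Block 10 also had the deepest cells of pnd7, with a median of 2910 counts against 2482 and 2052, and at 1500 counts per cell Plat was still found in 68.9% of its cells against 57.3% and 42.7%.

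Tgfbi was at 190 and 254 CPM in the pnd0 blocks and at 747, 541 and 693 CPM in blocks 5, 6 and 10 of pnd7. The pnd14 blocks 3, 4 and 7 gave 1147, 674 and 964 CPM. Block 4, the smallest with 24 cells, overlapped the pnd7 range, and the other blocks of pnd14 lay above it. At 1500 counts per cell the pnd14 blocks were close to each other, with Tgfbi in 52.3%, 55.6% and 54.9% of cells.

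Between birth and pnd7, the contrast on which both genes were chosen, Plat was 3.26-fold higher (log2 ratio 1.70 [1.43, 1.99]) and Tgfbi 3.02-fold higher (1.59 [1.31, 1.89]). Of 4126 genes with at least 50 counts over both ages, 2.57% were at least 2-fold higher at pnd7, and 26 genes had a higher ratio than Plat and 32 a higher one than Tgfbi. Every pnd7 block lay above every pnd0 block for both genes, as it did for 11.3% of these genes. Nothing is read from these counts, because the contrast selected the pair.

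From pnd7 to pnd14 the genes parted. Plat was lower by a log2 ratio of −0.62 [−0.87, −0.37] and Tgfbi higher by 0.55 [0.35, 0.75], against a median of −0.10 over 3704 genes. Neither change reached 2-fold, which 7.72% of genes exceeded upward and 10.4% downward, and for both genes the blocks of the 2 ages overlapped. Without block 10 the Plat ratio was −0.32 [−0.61, −0.04]. At 1000 counts per cell the Tgfbi ratio was 0.32 [−0.0006, 0.63], an interval that reaches 0. Of 3603 genes tested, 25 had at least a 2-fold peak at pnd7, and neither Plat nor Tgfbi was among them.

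From pnd14 to pnd28 the log2 ratio was 0.41 [−0.03, 0.84] for Plat and 0.23 [−0.09, 0.55] for Tgfbi, and both intervals reach below 0. The single pnd28 block lay above all 3 pnd14 blocks for each gene, as it did for 25.4% of 1937 genes with at least 50 counts. For Tgfbi this was only just so, at 1153 against 1147 CPM in block 3. From pnd28 to pnd56 Plat was 5.36-fold lower (−2.42 [−3.55, −1.45]) and Tgfbi 11.8-fold lower (−3.56 [−4.81, −2.53]). Of 651 genes with enough counts, 10.8% were at least 2-fold lower in that step, 14 had a lower ratio than Plat and 7 a lower one than Tgfbi. Both genes passed the minimum of 50 counts only through pnd28, with 63 and 111 counts there against 10 and 8 at pnd56. Nothing is therefore read from their places among these genes. A single cell held 5 of the 10 Plat counts at pnd56, and without the cell with the most Plat at each age the ratio was −3.22 [−4.90, −1.91]. These ages hold 1 block each.

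The oldest age was also lower than birth, with intervals that reached above 0 in some settings for both genes. Plat stood at −0.92 [−2.02, −0.00] for pnd56 over pnd0, an interval that ends at no difference, and at −1.77 [−3.41, −0.50] without the cell with the most counts at each age, and Tgfbi at −1.18 [−2.42, −0.16], or 2.27-fold lower. The median gene stood at −0.36 in this comparison and 28.8% of 2734 genes were at least 2-fold lower, with 833 genes at a lower ratio than Plat and 668 at a lower one than Tgfbi. Both genes passed the count minimum only through pnd0, so nothing is read from these places.

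The share of cells with a count differed between the ages much as the level did. Plat was counted in 56 cells (32.4%) at pnd0, 190 (71.2%) at pnd7, 81 (46.8%) at pnd14, 28 (50%) at pnd28 and 4 (8.89%) at pnd56. At 1500 counts per cell these shares were 23.8%, 56.7%, 39.8%, 33.3% and 8%, and averaged over all possible thinnings 20.3%, 56.1%, 42.5%, 39.6% and 7.59%. At 1000 counts per cell, which kept 52 cells of pnd28 in place of 33, they were 12.9%, 44.0%, 33.3%, 46.2% and 4.65%. The order of pnd28 against pnd7 and pnd14 thus turned with the depth and is not resolved, while pnd0 and pnd56 were the lowest at both depths. The thinned share was 2.38-fold higher at pnd7 than at pnd0, and the mean count in cells with Plat 1.19-fold higher, from 1.72 to 2.05 counts. With means of only 0.409 and 1.16 thinned counts per cell, this split does not tell more cells with RNA from more RNA in each.

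Tgfbi was counted in 50 cells (28.9%) at pnd0, 167 (62.5%) at pnd7, 102 (59.0%) at pnd14, 37 (66.1%) at pnd28 and 5 (11.1%) at pnd56. Thinned to 1500 counts it was found in 21.3%, 51.2%, 54.0%, 60.6% and 4% of cells, and averaged over all thinnings in 19.2%, 50.4%, 59.3%, 63.3% and 3.85%. At 1000 counts the shares were 15.8%, 37.6%, 47.5%, 59.6% and 9.30%, with the same order of pnd28, pnd14, pnd7, pnd0 and pnd56. The thinned share was 2.40-fold higher at pnd7 than at pnd0 and the mean count in cells with Tgfbi 1.16-fold higher. From pnd7 to pnd14 the share moved 1.05-fold and the mean count in cells with Tgfbi 1.21-fold, from 2.16 to 2.62.

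**Figure D2:**
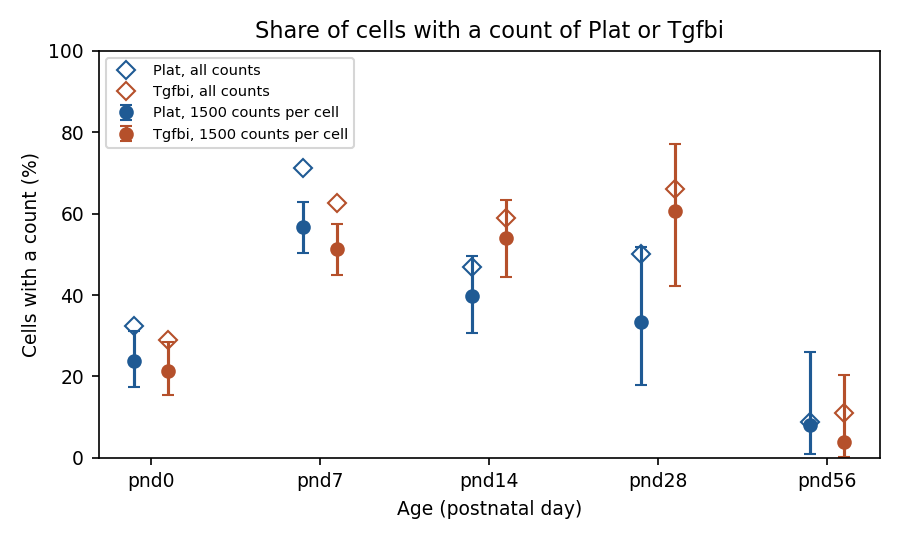
Share of cells with at least 1 count of Plat (blue) or Tgfbi (brown) at each age, as deposited (open diamonds) and with each cell thinned to 1500 counts (filled points, exact Clopper-Pearson 95% intervals). At 1500 counts Plat was highest at pnd7 (56.7%) and Tgfbi at pnd28 (60.6%), and both were lowest at pnd56 (8% and 4%), but at 1000 counts, not drawn, Plat was at 46.2% at pnd28 and 44.0% at pnd7.

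The spread over cells was near that of other genes for Plat. The Fano factor, the variance of thinned counts over their mean, was 1.80, 1.70, 1.81, 2.90 and 2.44 for Plat from pnd0 to pnd56. Genes whose mean lay within 1.5-fold had medians of 1.76, 1.95, 2.28, 2.33 and 1.61. At pnd28 the value was 2.01 without the single cell with most counts of Plat.

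For Tgfbi the Fano factor was 2.74, 3.06, 2.72, 2.14 and 1, against medians of 1.75, 1.93, 2.40, 2.62 and 1. At pnd7, 5 of 228 genes of like mean had a higher value, but 1 cell held 18 thinned counts and the factor was 2.17 without it. Cells with 5 or more thinned counts made up 1.22%, 5.12%, 7.08% and 9.09% of cells for Tgfbi from pnd0 to pnd28. For Plat they made up 3.54%, 0.885% and 3.03% at pnd7, pnd14 and pnd28, and no thinned cell of pnd0 or pnd56 had as many. Without thinning, the 10% of cells with the most counts held 63.0% of the Plat counts at pnd0 and 38.7% at pnd7, and 65.1% and 40.6% of those of Tgfbi. Thinned to 1500 counts, these shares were 65.7% and 36.9% for Plat and 72.3% and 48.0% for Tgfbi. No genes of like mean were set beside these shares, and nothing is read from their difference between the ages.

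**Figure D3:**
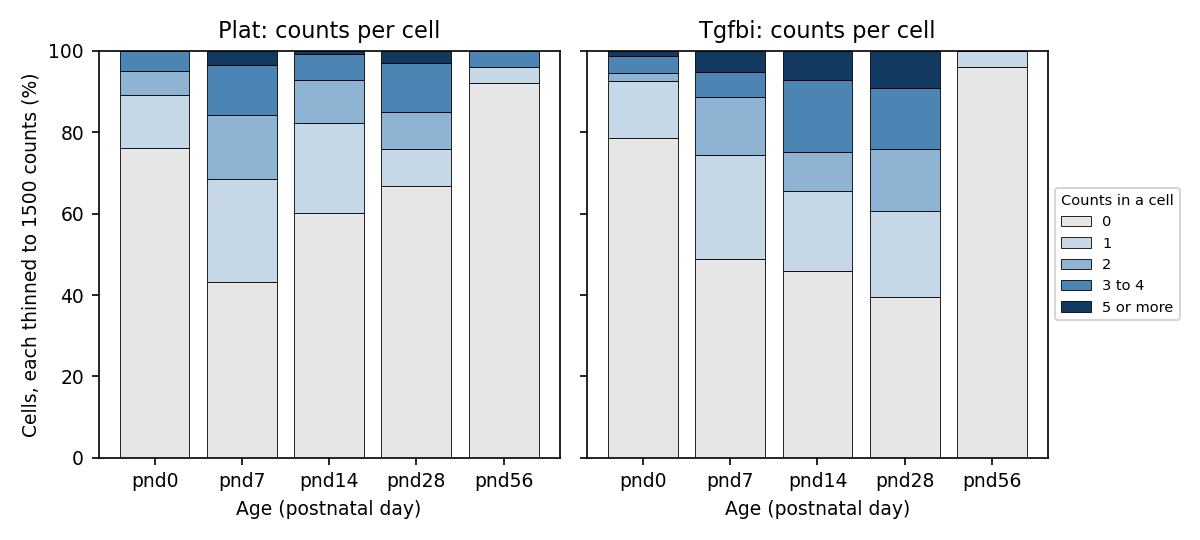
Counts of Plat (left) and Tgfbi (right) in single cells thinned to 1500 counts each, as the percent of cells of an age with 0, 1, 2, 3 to 4 and 5 or more counts. Fewer cells are at 0 at pnd7 than at pnd0 for both genes, and Tgfbi has its largest share of cells with 5 or more counts at pnd28 (9.09%).

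The balance of the pair changed between pnd7 and pnd14. Of the counts of both genes, Plat held 51.1% [44.9, 57.3] at pnd0 and 53.0% [49.9, 56.1] at pnd7, then 33.4% [29.4, 37.6] at pnd14 and 36.2% [29.1, 43.8] at pnd28. At pnd56 it held 55.6% [30.8, 78.5] of 18 counts. The pnd14 blocks 3, 4 and 7 gave 26.9%, 43.6% and 35.9%, all below the lowest of the blocks of the first week, which was block 2 at 45.9%. Blocks 1, 5, 6 and 10 gave 56.6%, 48.0%, 49.3% and 58.4%. How often the blocks part in this way for other pairs of genes was not counted. Among 3704 single genes, every pnd14 block lay above every pnd7 block for 9.42% and below for 15.9%. Nothing is therefore read from the order of the blocks. The interval of block 4 [32.4, 55.3], from 78 counts, held the values of blocks 2, 5 and 6, so its place below them is within counting error. This share is a ratio within the same cells, so the scaling by total counts does not enter it.

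**Figure D4:**
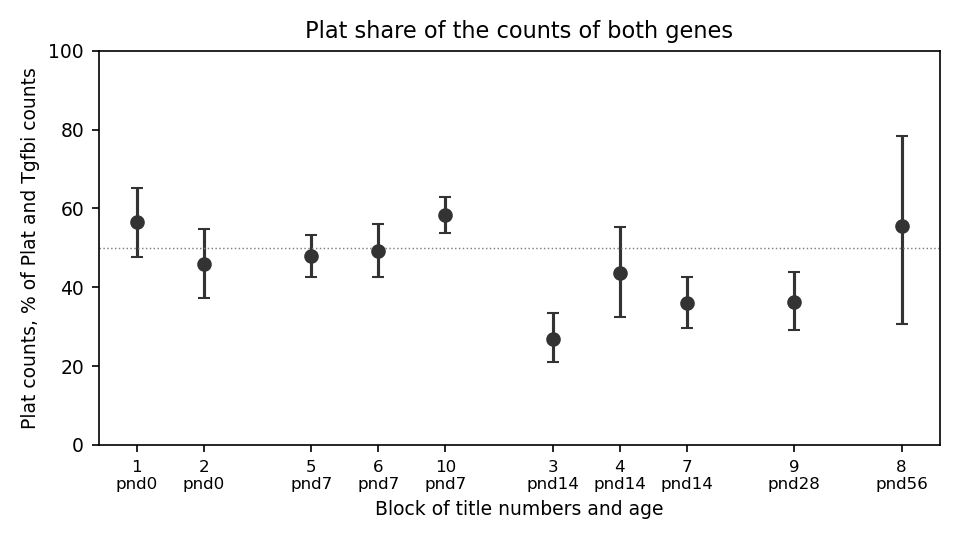
Plat counts as a percent of the counts of Plat and Tgfbi together in each block, in order of age, with exact Clopper-Pearson 95% intervals; the dotted line marks equal counts. The values of the pnd14 and pnd28 blocks lie below those of pnd0 and pnd7, with block 4 (43.6%) nearest and its interval overlapping theirs. The interval at pnd56 (18 counts) spans both.

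The number of cells with both genes lay near the product of the single shares at pnd7 and pnd14. At pnd7, with 1500 counts per cell, 144 of 254 cells had Plat, 130 had Tgfbi and 79 had both, where the product of the shares gives 73.7 cells, a ratio of 1.07. Tgfbi was found in 54.9% [46.4, 63.2] of the cells with Plat and in 46.4% [36.8, 56.1] of the 110 without. The ratio was 1.08, 1.11 and 1.01 in blocks 5, 6 and 10. Over 2224 genes found in at least 10% of the cells, the median of the same ratio with Plat was 1.01, and 30.3% of them were above the Tgfbi value. Among genes found in a share of cells within 1.5-fold of that of Tgfbi, 54 of 359 (15%) were above it with Plat. Among genes within 1.5-fold of the Plat share, 34 of 312 (10.9%) were above it with Tgfbi.

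At pnd0 the ratio was 0.72, with 6 cells against 8.32 from the product, at pnd14 it was 1.03 and at pnd28 0.90. With all counts, which leaves deeper cells with more of every gene, it was 1.11 at pnd0, 1.07 at pnd7, 1.07 at pnd14 and 1.08 at pnd28. The ratios at pnd0 and pnd28 thus lay below 1 at 1500 counts and above 1 with all counts, and no direction is read from them. At pnd56 none of the 45 cells had both genes, where the product gives 0.444 cells. With 3 cells as the limit that a count of 0 allows, the share of cells with counts of both could be up to 6.67%. With all counts, 7 cells at pnd7 and 3 at pnd14 had 5 or more counts of each gene. At 1500 counts per cell these numbers were 2 and 0, and at 1000 counts 0 at both ages, so they depend on depth. Whether they exceed what the single genes give was not tested.

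**Figure D5:**
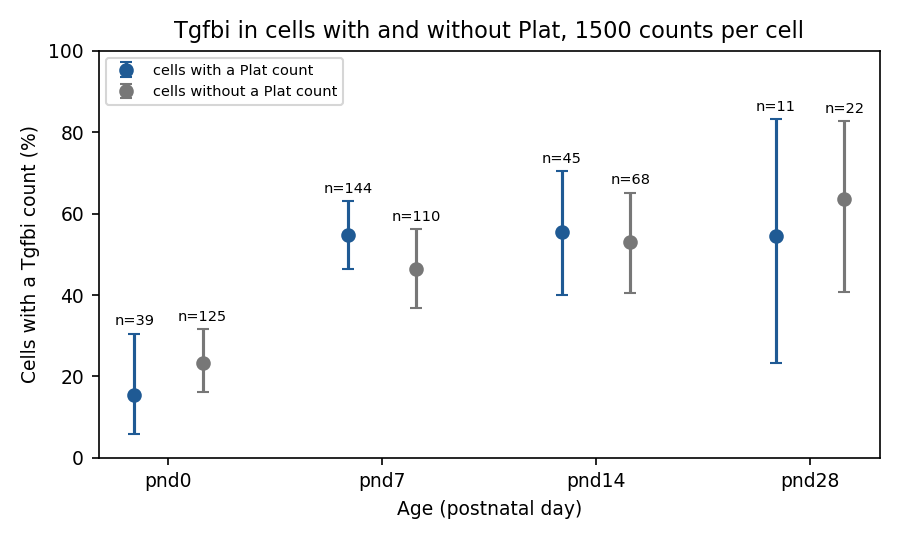
Share of cells with a Tgfbi count among cells with Plat (blue) and without Plat (grey) at 4 ages, each cell thinned to 1500 counts, with exact Clopper-Pearson 95% intervals and the number of cells. The intervals of the pair overlap at each of the 4 ages.

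Both genes were also read beside a few genes of cell subsets, which were chosen after values were seen. At pnd7 and 1500 counts per cell, Tgfbi was found in 73.7% [56.9, 86.6] of the 38 cells with Aldh1a1, a retinoic acid synthesis enzyme, and in 47.2% [40.4, 54.1] of the 216 without. For Plat the shares were 63.2% [46.0, 78.2] and 55.6% [48.7, 62.3]. Among 20 pnd7 cells with Esr1, the oestrogen receptor, 60.0% had Plat and 45.0% Tgfbi, against 56.4% and 51.7% of the others.

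At pnd0 none of the 10 cells with Upk3a, a urothelial plaque protein, had a count of Plat or of Tgfbi, which by the same limit of 3 cells allows a share of up to 30% for each, against 25.3% and 22.7% of the other cells. At pnd14 Tgfbi was in 41.7% [25.5, 59.2] of the 36 cells with the oviductal glycoprotein gene Ovgp1 and in 59.7% [47.9, 70.8] of the rest. In the same cells Plat was in 36.1% and 41.6%.

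Cells with genes of other cell types were counted as those with at least 5 counts over at least 2 genes of a fixed marker list, a range of a count and no cell type. The epithelial list was met by 165, 263, 149, 34 and 38 cells from pnd0 to pnd56. At pnd0, 15 cells with erythroid genes had Plat at 89.8 CPM [29.2, 210] against 247 CPM [206, 293] in the others, and Tgfbi at 53.9 CPM [11.1, 157] against 239 CPM [199, 285]. The erythroid list made up 1.35% of all counts at pnd0 and at most 0.0327% at the later ages. Of these 15 cells, 4 had a Plat count and 1 a Tgfbi count. The 12 cells with erythroid genes at pnd7 had Plat at 994 CPM [680, 1403] against 743 CPM [681, 810] and Tgfbi at 559 CPM [331, 884] against 674 CPM [614, 737], all within overlapping intervals. Without cells with erythroid genes the log2 ratio of pnd7 over pnd0 was 1.59 for Plat and 1.49 for Tgfbi.

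At pnd14, 19 cells had smooth muscle genes, with 5 more near the limit. Plat stood at 113 CPM [30.8, 290] in them and 533 CPM [456, 620] in the others, and Tgfbi at 707 CPM [458, 1044] and 1010 CPM [903, 1127]. Stromal genes marked 14 cells at pnd14, where Tgfbi was at 213 CPM [78.1, 463] against 1046 CPM [938, 1164] in the others and Plat at 248 CPM [99.9, 512] against 512 CPM [438, 596]. Stromal genes marked 11 cells at pnd28, where Tgfbi was at 398 CPM [182, 756] against 1385 CPM [1129, 1681]. The Tgfbi intervals of marked and other cells did not overlap for the stromal list at either of these ages and overlapped for the smooth muscle list. In the few cells with stromal genes at other ages Tgfbi was higher, within overlapping intervals. It was at 900 CPM [492, 1510] in 5 cells of pnd7 against 664 CPM [605, 726]. In 2 cells of pnd56 it was at 444 CPM [91.5, 1297] against 66.5 CPM [21.6, 155]. The 2 cells with endothelial genes at pnd14 had no count of either gene, in 7549 counts.

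At pnd56 the few counts of the genes lay in different cells, those of Plat in 4 cells and those of Tgfbi in 5. The 38 cells with epithelial genes held all 10 Plat counts and 1 of the 8 Tgfbi counts, or 14.4 CPM [0.364, 80.1]. The 7 other cells held 7 Tgfbi counts, or 567 CPM [228, 1168], and none of Plat. Of those 7 counts, 3 came from the 2 cells with stromal genes. None of the 7 cells had an Epcam count, 4 had Krt18, and their median depth was 1204 counts against 1737. With epithelial-gene cells alone, an alternative chosen after seeing the data, Tgfbi for pnd56 over pnd28 was at −6.47 [−11.79, −3.95].

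The genes around plasmin were mostly too low to follow. Of 15 plasminogen activators and inhibitors on the list, which was drawn up with earlier results known, 7 had a row and only Plat reached 20 counts. Plau, the urokinase gene, had 8, 10, 0, 0 and 1 counts from pnd0 to pnd56, and Serpine2, an inhibitor of both activators, had 14 counts, all at pnd14. A change below means at least 2-fold among genes with 20 or more counts over both ages. Where a gene reached 20 counts only through the age at which it was higher, nothing is read from its direction. Such changes were seen in 4.94% of all genes upward and 7.61% downward from pnd0 to pnd7, in 10.7% and 14.3% from pnd7 to pnd14, in 11.9% and 23.2% from pnd14 to pnd28, and in 14.8% and 16.5% from pnd28 to pnd56.

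Of 14 genes for proteins that bind plasminogen or tissue plasminogen activator at the cell surface, 8 had 20 or more counts over pnd0 and pnd7. Anxa2 and S100a10, which form a receptor for both, had 1641 and 300 counts at pnd0 and 1989 and 414 at pnd7, with log2 ratios of −0.05 [−0.15, 0.04] and 0.13 [−0.08, 0.35], while Plat stood at 1.70. Of these 8 genes, 1 was higher (Actb, at 3 and 18 counts) and 1 lower (the plasminogen receptor gene Plgrkt, at 23 and 4 counts), with a list median of 0.17 against −0.03 for all genes. The Actb row held only 0, 0 and 2 counts at pnd14, pnd28 and pnd56, and nothing is read from its ratio. From pnd28 to pnd56, in which Plat was lower, 1 of 5 measured genes of this list was higher (Anxa2, 1.37 [1.12, 1.63]) and 0 were lower. From pnd7 to pnd14, in which Plat was also lower, Anxa2 was lower too, at −0.96 [−1.11, −0.82]. In that step 3 of 9 were at least 2-fold higher (Plgrkt, Lrp2 and Vim) and 2 lower (Eno1 and Igf2r).

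Of 13 matrix proteases and inhibitors measured from pnd0 to pnd7, 1 was higher and 3 lower, with a median of −0.22. The gelatinase gene Mmp2 went from 0 to 28 counts, higher by at least 2.89 on the log2 scale against a floor of 3 counts over the age, and its counts at later ages were 19, 50 and 4. Mmp11, Timp1 and Furin were lower, at 27 and 16, 22 and 13, and 15 and 8 counts. The matrilysin gene Mmp7 had 0 counts at pnd14 and 26 at pnd28.

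Of 11 receptors and SMADs of the TGF-beta pathway measured from pnd0 to pnd7, 0 were higher and 1 was lower, near the shares over all genes, and the list median was −0.21. Zfyve9, which presents SMADs to the receptor, had 55 and 20 counts (−1.79 [−2.61, −1.03]). The receptor gene Tgfbr1 was at −0.29 [−0.68, 0.09], Smad3 at −0.23 [−0.64, 0.18] and Smad4 at 0.30 [−0.36, 0.97]. The ligand genes Tgfb1, Tgfb2 and Tgfb3 had 9, 1 and 1 counts at pnd7, too few to follow. Of the latent complex, Ltbp1 had 142 and 162 counts and Ltbp3 204 and 241, and 0 of 3 ligand and activation genes measured changed 2-fold.

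From pnd7 to pnd14, while Tgfbi was at 0.55, Ltbp1 was at 162 and then 12 counts (−2.71 [−3.69, −1.86]) and the inhibitor Smad7 at 49 and 10 (−1.24 [−2.39, −0.24]). In that step 3 of 11 receptors and SMADs were higher (Acvr1b, Acvr2a and Eng) and 4 lower (Acvr2b, Smad3, Smad7 and Skil), with a median of −0.62. Thbs1 and Itgav, which activate latent TGF-beta, were higher at 3.22 [1.62, 5.24] and 1.11 [0.61, 1.61]. From pnd14 to pnd28 Tgfbr1, Smad3 and Smad7 were higher, the last at 3.26 [2.16, 4.47]. From pnd28 to pnd56 only these 3 had 20 counts, mostly from pnd28, at −1.45 [−3.25, 0.07], −1.18 [−2.47, −0.03] and −2.15 [−3.88, −0.74]. Genes that pass through the higher age had to come out lower, and Skil, with 10 and 9 counts, was at 0.08 [−1.39, 1.53], so nothing is read from their direction.

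Of 11 TGF-beta target genes measured from pnd0 to pnd7, Tgfbi and Col1a2 were higher and Fn1 lower. Tgfbi was selected on this contrast, so its direction here was set in advance. Without Tgfbi the median was −0.10. Col1a2 had 3 and 26 counts, and it is also on the stromal list, which made up 0.00412% of all counts at pnd0, 0.0130% at pnd7, 0.0811% at pnd14, 0.338% at pnd28 and 0.292% at pnd56. The part of stromal RNA in the collagen values was not tested. Id1 and Id3, which TGF-beta family signals control, had 472 and 554 counts at pnd7. From pnd28 to pnd56, 2 of 8 target genes measured were higher (Col1a1 and Col1a2) and 4 lower (Tgfbi, Smad7, Id1 and Id3). Id1 had 68 and 16 counts (−1.85 [−2.74, −1.05]) and Id3 59 and 4 (−3.65 [−5.57, −2.22]). The 4 lower genes passed the count minimum only through pnd28, so nothing is read from their direction. The collagen genes Col1a1 and Col1a2 had 4 and 18 counts (2.40 [0.80, 4.43]) and 40 and 78 (1.20 [0.63, 1.78]). Nothing is read from the direction of Col1a1 either, which fell short of the minimum without its pnd56 counts.

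Of the 4 genes with fasciclin domains on the list, 3 had a row: Stab1, a scavenger receptor, had 167, 161, 12, 7 and 19 counts, and the matrix gene Postn 0, 4, 14, 5 and 5. Of 6 integrin genes measured from pnd0 to pnd7, 0 changed 2-fold. The laminin receptor subunits Itgb4, Itga6 and Itgb1 were the best counted, with 484, 148 and 181 counts at pnd7 and ratios of 0.29 [0.09, 0.50], −0.35 [−0.69, −0.01] and 0.30 [−0.05, 0.65]. Itgav from pnd7 to pnd14 and Itga6 from pnd14 to pnd28 (1.19 [0.78, 1.60]) were the changes of integrins in those steps.

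Of 10 matrix genes measured from pnd0 to pnd7, Bgn, a small proteoglycan gene, was higher with 1 and 34 counts, and Fn1 and Lama5 were lower with 50 and 28 and 30 and 16 counts. From pnd7 to pnd14 4 of 10 were higher (Bgn, Dcn, Col1a1 and Col4a2). Dcn, the decorin gene and also a stromal marker, had 15, 24, 75, 191 and 29 counts from pnd0 to pnd56. It was higher in the steps to pnd14 and pnd28 and lower in the last one, at −2.49 [−3.10, −1.92].

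Over the 10 blocks the course of each member was set against 3394 genes with at least 100 counts, as the correlation of log2(CPM + 10), with 10 points that share age and depth. Nearest to Plat were Slc4a2 (0.91), Mier1 (0.89), Cyp39a1 (0.87), Tgfbi (0.86) and Apobec3 (0.85). Nearest to Tgfbi were Slc5a11 (0.95), Agps (0.92), Prrc2b (0.91), Apobec3 (0.91) and Myl9 (0.90), and Plat came 12th. Myl9 is on the smooth muscle list, yet in single cells of pnd14 Tgfbi was found in 35.1% [20.2, 52.5] of the 37 cells with Myl9 and 63.2% [51.3, 73.9] of those without, so the order over blocks is not one over cells.

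No annotated gene overlaps Plat or Tgfbi in the RefSeq table, which is of another build than the files. Next to Plat lie Ikbkb and Ap3m2, and next to Tgfbi lie 2010203P06Rik and Gm40961. Ikbkb had 5, 2, 2, 10 and 0 counts from pnd0 to pnd56, too few to set beside Plat.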

How the data were processed

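Whole-number counts per gene and cell were used as the authors deposited them, in 1 table of 12479 rows and 714 cells. The submitters' processing notes name TopHat, Cuffnorm and mm9 without roles or versions. How molecular identifiers and strand were handled was not given in these sources. Cells of an age were summed as 1 sample. No 2 cells were identical, and the highest correlation between cells was 0.576. Levels have exact Poisson intervals, ratios exact conditional binomial ones and shares Clopper-Pearson ones, at 95%. No p-value was computed, because cells are not replicates. Thinning drew counts without replacement with seed 1. A 0 was set to 3 counts in list and background ratios, and no single ratio was given where both ages had 3 counts or fewer. Named genes are the members, list genes at least 2-fold changed or among the 4 best counted, the 5 genes most like each member, and neighbours. The members, the 17 lists and the tests were chosen with earlier results of these data known. Python 3.11.15 with numpy 2.4.6, scipy 1.17.1, pandas 2.3.3 and matplotlib 3.10.9 was used, and the calculations were tested on simulated data. Scaling, thinning depth, weighting of cells, blocks left out and cells left out were varied.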

Additional observations from a re-analysis of the deposited data

How the results depend on the processing

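None of the log2 ratios of the 5 comparisons turned its direction under the settings run. The order of the Plat share at pnd28 against pnd14 and pnd7 turned between 1500 and 1000 counts per cell. The co-detection ratio turned across 1 at pnd0 and pnd28 (0.72 and 0.90 at 1500 counts, 1.11 and 1.08 with all counts). Leaving out 1 block at a time, the Plat log2 ratio ranged from 1.41 (without block 10) to 1.86 for pnd7 over pnd0 and from −0.78 (without block 6) to −0.32 (without block 10) for pnd14 over pnd7. Thinned to 1000 counts per cell, Tgfbi for pnd14 over pnd7 was 0.32 [−0.0006, 0.63], an interval that reaches 0. Thinned to 1500 counts, the Tgfbi value at pnd56 was −5.30 against pnd28 and −3.31 against pnd0. With epithelial-gene cells alone, an alternative chosen after seeing the data, these were −6.47 and −3.98. Only 1 Tgfbi count was left at pnd56 in each of those settings. The other 130 values, which include median-of-ratios scaling, equal weights and cells with other cell types' genes left out, moved by less than the interval of the value they were set against. Over all settings Plat ranged from −1.77 to −0.64 for pnd56 over pnd0, with an interval that reached above 0 in some of them, and from −3.23 to −2.34 for pnd56 over pnd28. Tgfbi ranged from −3.98 to −0.75 for pnd56 over pnd0. Its interval also reached above 0 without block 2 (−0.96 [−2.24, 0.12]) and at 1000 counts per cell (−0.90 [−2.60, 0.45]). The ratio of cells with both genes at pnd7 ranged from 1.04 to 1.16. The share of genes at least 2-fold higher at pnd7 was 4.94% with a count minimum of 20 and 1.52% with 100, against 2.57%. The share lower at pnd56 than at pnd28 was 16.5% with a minimum of 20, against 10.8%. Among the 5 genes nearest to Tgfbi over the blocks, Tpt1-ps6 replaced Myl9 with a pseudocount of 50. No paired analysis was possible because replicate numbers only count the cells of an age, and no animal, litter or pool is named. The 18 counts of both genes at pnd56 limit every statement on that age, and no difference between ages has a replicate.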
